A study of Mus musculus with 4 samples.

Results

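The low-UMI basal cells are 315 of the 8880 cells in a single-cell RNA-seq atlas of the mouse epididymis and vas deferens. They are the cells that carry the one label holding exactly 315 cells in the cell annotation deposited with the counts, a basal population named there for its low number of unique molecular identifiers (UMIs, each standing for 1 captured mRNA molecule). They are described here against the 917 cells of the main basal population, within each library, and against 165 basal cells with high Notch2. The atlas holds 4 libraries, one for each successive region of the duct (caput, corpus and cauda of the epididymis, then vas deferens), each made from 8 pooled pieces of the same 4 untreated male FVB/NJ mice, 10 to 12 weeks old. Sperm were washed out before the tissue was dissociated with enzymes. With 1 pooled library per region there were no replicates, so no test was run and every interval given is a 95% interval that covers counting error only.

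Basal cells sit at the base of the epididymal epithelium, beneath the tall principal cells that secrete into the lumen and reabsorb from it. They are anchored to the basement membrane by hemidesmosomes and integrins, carry the keratins of stratified epithelia, and have been proposed as progenitors and as guardians of the barrier between blood and lumen. In any cell, mRNAs for secreted and membrane proteins are brought to the endoplasmic reticulum (ER) while they are translated, because the nascent protein carries a hydrophobic segment, whereas mRNAs for ribosomal, cytosolic and most mitochondrial proteins are translated mainly on free ribosomes.

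The population was found in every region. Caput, corpus, cauda and vas deferens gave 94, 147, 31 and 43 of its cells, beside 189, 306, 131 and 291 main basal cells. Its share of the cells in both populations was 33.2% for caput (exact binomial interval 27.8 to 39.0), 32.5% for corpus (28.2 to 37.0), 19.1% for cauda (13.4 to 26.0) and 12.9% for vas deferens (9.48 to 16.9). The intervals of the caput and corpus overlapped widely, and both lay above that of the vas deferens, but region and library cannot be told apart. In the study's first clustering of all cells, 302 of the 315 fell into 1 cluster of 338 cells, which held only 19 main basal cells. No low-UMI basal cell had a barcode that also occurred in another library, whereas 86 cells of the whole series did.

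Low-UMI basal cells had a median of 900 UMIs and 496 genes per cell, against 5654 UMIs and 1806 genes in main basal cells and 4275 UMIs in Notch2-high basal cells. Along the duct, from caput to vas deferens, their medians were 1047.5, 887, 1068 and 585 UMIs. Main basal cells had medians of 6325, 6796, 5781 and 3778 in the same order, so the population was shallow in all 4 libraries. The ranges nevertheless overlapped. Low-UMI cells reached from 283 to 10545 UMIs, with 7 above 3000, and 70 of the 917 main basal cells had 2000 UMIs or fewer. The summed UMIs of the low-UMI cells were 118718, 148291, 34434 and 37645 in the caput, corpus, cauda and vas deferens, which sets the precision of every level below. The study removed ambient RNA, the free RNA in the droplets. This took a median of 12.1% of the UMIs of a low-UMI cell and 2.03% of those of a main basal cell. The study set the removal from a fixed number of UMIs per library, so its percent is larger in shallower cells. Median depth went from 1025 to 900 UMIs in low-UMI cells and from 5779 to 5654 in main cells. The part of this removal in the differences below was not tested beyond the depth-matched values given with them.

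Markers were then set beside the label, which the study had given with the help of marker genes in these same counts. Levels are given as UMIs per 1000000 UMIs of the population in a library (UPM). Values for the 4 libraries run in the order caput, corpus, cauda, vas deferens. Krt14 (chromosome 11, 100203162 to 100207510 in RefSeq coordinates of GRCm38, also called mm10), the keratin of basal layers, stood at 1988 UPM in caput low-UMI cells against 2193 in caput main cells. The corpus pair was 2927 and 2984, the cauda pair 2962 and 3759, and the vas deferens pair 2205 and 2973. Krt14 was thus near level in the corpus and lower in the other regions, most so in the vas deferens. Its ratio over the 4 libraries was 0.90 (0.84 to 0.97, Mantel-Haenszel ratio with the library as stratum). Cdh16 (chromosome 8, 104601915 to 104624396), a cadherin of kidney and epididymal epithelium, was at 792, 384, 348 and 266 UPM, against 229, 90.1, 90.2 and 124 in main cells, a ratio of 3.58 (3.02 to 4.24). Mia (chromosome 7, 27179741 to 27181149), a small secreted protein, was at 868, 1038, 1307 and 6854 UPM against 489, 392, 309 and 2530, a ratio of 2.53 (2.32 to 2.77). In both populations Mia was far higher in the vas deferens than in the other libraries. Against only the 38 main cells whose UMIs lay within the 10th to 90th percentile of the low-UMI cells of their library, which hold 37063 UMIs in all and are called main cells of matched depth below, Cdh16 was at 1.57 (0.85 to 2.89), Mia at 1.15 (0.90 to 1.48) and Krt14 at 0.91 (0.74 to 1.11). After each cell was thinned to 300 UMIs, which left out 1 low-UMI cell and 9 main cells, Krt14 was seen in 40.8% of low-UMI cells (35.3 to 46.4) and 48.6% of main cells (45.3 to 51.9). By library it was seen in 30.9%, 40.8%, 67.7% and 42.9% against 38.3%, 51.0%, 62.5% and 46.6%, so the cauda ran the other way. Krt14 was seen in 0 of 189 immune cells and 1 of 236 endothelial cells, which should lack it and have median depths of 2887 and 2590 UMIs. Without thinning the shares were 66.3%, 87.6%, 1.54% and 2.86%. With the libraries pooled, Cdh16 was seen in 18.8% of thinned low-UMI cells against 3.30% of main cells, and Mia in 31.8% against 24.1%. By library Mia was seen in 28.72%, 23.13%, 22.58% and 76.19% against 15.96%, 14.24%, 8.59% and 46.55%. Cdh16 was seen in 30.85%, 15.65%, 9.68% and 9.52% against 4.79%, 1.32%, 3.125% and 4.48%. The intervals overlapped except for Mia in the vas deferens and Cdh16 in the caput and corpus. Cdh16 and Mia were each seen in 0.529% of thinned immune cells, and in endothelial cells Cdh16 was seen in none and Mia in 0.424%. Krt14, Cdh16 and Mia were thus each seen more often in low-UMI basal cells than in immune and endothelial cells. Since the label came from these same counts, these values describe it and cannot test it. Principal, clear and stromal cells were not compared in this way.

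Markers of other cell types were at low levels, except for those of principal cells. Of the 13 immune markers in the table, 10 had no UMI in low-UMI cells, among them Ptprc, C1qa and Csf1r. The list took 0.00168%, 0.00337%, 0.0116% and 0.0638% of the UMIs of low-UMI cells and 0.00131%, 0.00172%, 0.00811% and 0.0319% of those of main cells, a ratio of 1.85 (1.31 to 2.62) that rested mostly on Cd74. Of 9 endothelial markers 5 had no UMI, including Pecam1, Cdh5 and Kdr. The list took 0.00505%, 0.00877%, 0% and 0.0186% of UMIs, against 0.00148%, 0.00506%, 0.00747% and 0.0254% in main cells. It was thus higher in the caput and corpus and lower in the cauda and vas deferens, with a ratio of 1.20 (0.80 to 1.79). Stromal markers took 0.00927%, 0.0121%, 0.0232% and 0.0372%, a ratio of 2.80 (2.08 to 3.76), and Dcn, a matrix proteoglycan, gave 37 of those UMIs. Muscle markers, led by Acta2, took 0.0152%, 0.0459%, 0.0261% and 0.0558%, a ratio of 1.45 (1.20 to 1.75). Clear cell markers, led by the proton pump subunit Atp6v0c, took 0.120%, 0.107%, 0.151% and 0.117%, a ratio of 1.33 (1.20 to 1.47), while Foxi1, the clear cell transcription factor, had no UMI. The principal cell list was the most abundant of these, and in the caput it took more UMIs than the 14 basal markers did. It summed to 2.54%, 1.08%, 1.19% and 0.677% of UMIs against 0.895%, 0.457%, 0.307% and 0.30% in main cells, a ratio of 2.70 (2.62 to 2.78). The basal markers summed to 1.88%, 3.31%, 3.82% and 3.29% against 1.1%, 1.46%, 1.74% and 1.52%, a ratio of 2.08 (2.03 to 2.12). The most abundant principal gene, Lcn2, a secreted iron-carrier binding protein, gave 3554 UMIs at a ratio of 2.73 (2.63 to 2.83). The caput genes Gpx5 and Spag11b, which mark principal cells, stood at 2611 and 2291 UPM in caput low-UMI cells against 766 and 572 in caput main cells. Against only main cells of matched depth, Gpx5 was at 0.56 (0.41 to 0.76), Spag11b at 0.42 (0.31 to 0.56) and Lcn2 at 2.37 (2.01 to 2.80). All 18 principal markers had a UMI in the population. The part of RNA from other cell types in the differences below was not tested.

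Low ribosomal protein mRNA sets the population apart, and these genes were among the data from which the populations were cut. Whether the population is a state of cells in the tissue or comes from the handling of cells and droplets cannot be told apart here, and this holds for every ratio below. The 85 ribosomal protein genes made up 7.95%, 6.37%, 6.19% and 7.92% of the UMIs of low-UMI cells in the caput, corpus, cauda and vas deferens. In main cells they made up 23.6%, 26.6%, 27.2% and 22.0%, and in Notch2-high cells 21.1%, 23.6%, 22.6% and 21.2%. By these summed shares low-UMI cells lay below both other groups in every library, and the ratio of low-UMI to main cells was 0.28 (0.278 to 0.286). Single cells overlapped, since main cells reached down to 2.32% and Notch2-high cells to 0%. For Notch2-high cells of matched depth, the caput median was 4.44% (3 cells), against 4.71% in caput low-UMI cells. In the corpus, cauda and vas deferens it was 11.5%, 13.1% and 21.0% (3, 2 and 11 cells), against 4.51%, 5.01% and 3.85%. The 3 most abundant of these genes in main cells were Rps19 at 0.22, Rpl41 at 0.44 and Rpl13 at 0.39 of the main level. The 80 with enough UMIs to be compared, by the rule given below, had a median ratio of 0.268 and all lay between 0.18 (Rpl12) and 0.499 (Rps2). Against main cells of matched depth the median was 0.38 and 70 of the 80 were at most 0.5. The other 10 included Rps21 at 0.66 (0.48 to 0.91), Rpl8 at 0.62 (0.48 to 0.80) and Rps2, which turned to 1.62 (0.55 to 4.75) with 4 UMIs in the main cells, and Rps19 moved to 0.40 (0.34 to 0.49). In single cells the median share was 4.77%, with a range from 0.792% to 18.5%, against 24.5% in main cells. A share under 10% was found in 283 of 315 low-UMI cells and in 20 of 917 main cells.

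The ribosomal shares also differed between basal cells of like depth. Cells of up to 500 UMIs had a median ribosomal share of 4.23% among 35 low-UMI cells and 20.6% among 26 main cells. Between 500 and 1000 UMIs the medians were 3.85% for 148 low-UMI cells and 23.5% for 20 main cells, and between 1000 and 1500 UMIs they were 5.59% for 88 and 19.1% for 19. Notch2-high cells had medians of 7.43% for 11 cells of up to 500 UMIs and 12.8% for 10 cells of 500 to 1000, between the others, and of 21.0% for 13 cells of 1000 to 1500, above main cells. Within the low-UMI population the share was higher in deeper cells, with a median of 8.54% for 25 cells at 1500 to 2000 UMIs, 9.71% for 12 cells at 2000 to 3000 and 14.9% for 5 cells at 3000 to 5000. The median removed ambient share in low-UMI and main cells was 21.2% and 24.2% up to 500 UMIs and 13.6% and 13.8% at 500 to 1000. It was 9.92% and 8.50% at 1000 to 1500, 7.27% and 5.92% at 1500 to 2000, and 5.11% and 3.29% at 2000 to 3000. The removed share was thus higher in low-UMI cells in the 3 ranges from 1000 to 3000 UMIs. Low-UMI cells were also shallower within these ranges, with median UMIs of 1134.5 against 1250, 1607 against 1876 and 2467.5 against 2661. Cells were assigned to populations from these same counts, so these values describe how the shallow cells were divided.

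**Figure D1:**
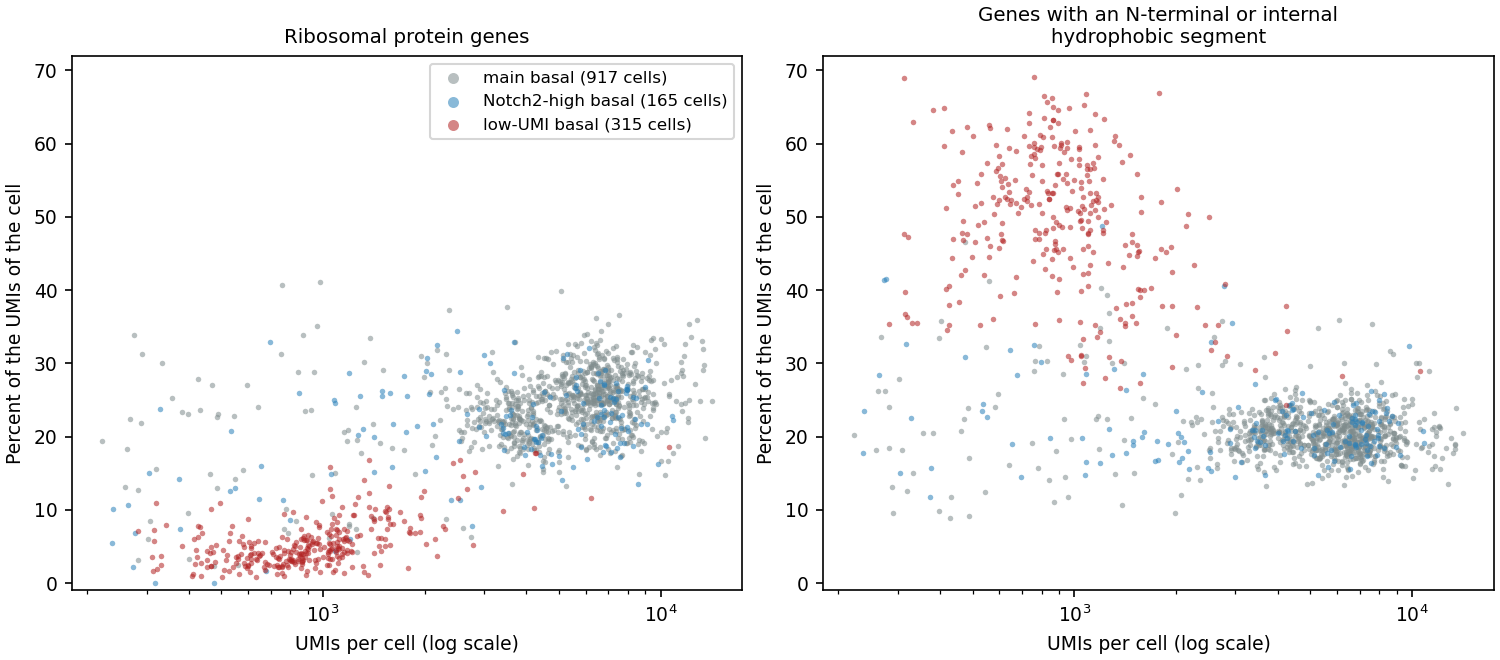
Each point is 1 basal cell, with its UMIs on a log axis and, on the vertical axis, the percent of its UMIs from ribosomal protein genes (left) or from genes whose protein has an N-terminal or internal hydrophobic segment (right). The 315 low-UMI cells (red) lie low on the left and high on the right, with medians of 4.77% and 50.6%, and main cells (grey) have medians of 24.5% and 20.4%.

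Genes were then compared one by one. A gene entered if its mean level in both populations would give at least 20 UMIs in the low-UMI cells, which 2495 of 16892 genes did. A gene could thus enter through its level in 1 population, so the largest ratios in either direction can rest on few UMIs in the other. It was called if its ratio was at least 2, or at most 0.5, and lay on the same side of 1 in all 4 libraries. Of the 2495 genes, 419 were higher (16.8%) and 284 lower (11.4%), and 80 of the lower genes were ribosomal. Since the populations were cut from these genes, the calls describe the populations and are not a test. The median log2 ratio of all genes compared was 0.21. Levels are shares of all UMIs, so a lower ribosomal share goes with a higher summed share of all other genes. Levels were therefore also taken over the UMIs outside ribosomal protein genes. On that scale the median was -0.10 and 240 genes were higher and 427 lower, so that higher genes made up 36.0% of the called genes in place of 59.6%. Without the corpus library only 1462 genes could be compared, of which 236 were higher (16.1%) and 215 lower (14.7%). Against main cells of matched depth, 289 of 2790 were higher (10.4%) and 98 lower (3.51%), of which 182 and 72 were also called against all main cells. By the ratio over the libraries alone, 221 of the 419 higher genes stayed at 2 or more there, 143 lay between 1 and 2, 29 turned and 26 had no UMI in those main cells. Of the 284 lower genes, 170 stayed at 0.5 or less, 93 lay between 0.5 and 1 and 21 turned. Counts of list members below stand beside the shares of all 2495 genes, 16.8% higher and 11.4% lower, or 9.62% and 17.1% on the scale outside ribosomal genes.

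The 10 highest ratios belonged to Evi2b, Plau, Notch2, Lypd3, Lbr, Atp6ap2, Ces2e, Slpi, Slc39a1 and Tmem171. Evi2b, a membrane protein, had a ratio of 6.77 (5.00 to 9.18), and stood at 92.7, 276, 203 and 79.7 UPM against 27.1, 29.9, 19.3 and 23.0. Without the corpus the ratio was 4.45, and against main cells of matched depth it was 1.37 (0.54 to 3.46), where the call was lost. Plau, the secreted urokinase, had a ratio of 6.18 (4.21 to 9.08). Notch2, the receptor that names the other minor basal population, reached 152, 189, 58.1 and 372 UPM against 33.7, 29.9, 33.5 and 50.5, a ratio of 5.41 (4.04 to 7.25). Its pooled level of 183 UPM was below the 242 UPM of the Notch2-high cells. Spry2, another gene of those cells, had a ratio of 1.26 (0.88 to 1.82) and was not called. Lypd3, a membrane-anchored surface protein, Lbr, the lamin B receptor of the inner nuclear membrane, and Atp6ap2, an accessory protein of the proton pump, had ratios of 5.21 (3.38 without the corpus), 5.06 and 4.83. Slpi, a secreted protease inhibitor, and Slc39a1, a zinc transporter, had ratios of 4.69 and 4.64. At matched depth Slc39a1 was at 1.34 (0.58 to 3.11), Slpi at 52.5 (7.54 to 366) and Tmem171 at 5.80 (2.58 to 13.0), where the main cells had 6, 1 and 6 UMIs. Plau and Lypd3 had no UMI in those cells. Notch2 was at 3.99 (0.96 to 16.6) there and Atp6ap2 at 3.92 (1.61 to 9.52).

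The 10 lowest ratios outside the ribosomal genes belonged to Ndufa6, Gabarap, Uqcrq, Psmb1, Atp5l, Atp5g2, Btf3, Atp5e, Wdr89 and Gnb2l1. Gabarap, a small cytosolic protein of autophagosomes, gave 135, 13.5, 87.1 and 53.1 UPM against 654, 445, 416 and 546, a ratio of 0.13 (0.08 to 0.19) that became 0.070 without the caput. Atp5g2, an ATP synthase subunit, was at 0.16 (0.10 to 0.25), or 0.074 without the corpus. Ndufa6, a subunit of respiratory complex I, gave 67.4 and 40.5 UPM in the caput and corpus against 429 and 353. It had no UMI in the cauda and vas deferens, where 3 UMIs would be 87.1 and 79.7 UPM, and its ratio was 0.11 (0.07 to 0.19). Psmb1, a proteasome subunit, had a ratio of 0.15 (0.09 to 0.25). Uqcrq, a subunit of respiratory complex III, was at 0.13 (0.07 to 0.25), or 0.20 without the corpus. Btf3, which binds nascent chains, and Gnb2l1, a protein of the small ribosomal subunit, were at 0.16 and 0.17. At matched depth Atp5g2 was at 1.04 (0.24 to 4.51), with 2 UMIs in the main cells, Gnb2l1 at 0.63 (0.34 to 1.17), Btf3 at 0.42 (0.22 to 0.81), Atp5e at 0.48 (0.19 to 1.23), Atp5l at 0.35 (0.17 to 0.73) and Gabarap at 0.28 (0.12 to 0.66). Ndufa6 at 0.14, Uqcrq at 0.10, Psmb1 at 0.15 and Wdr89 at 0.18 stayed below 0.5 there.

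**Figure D2:**
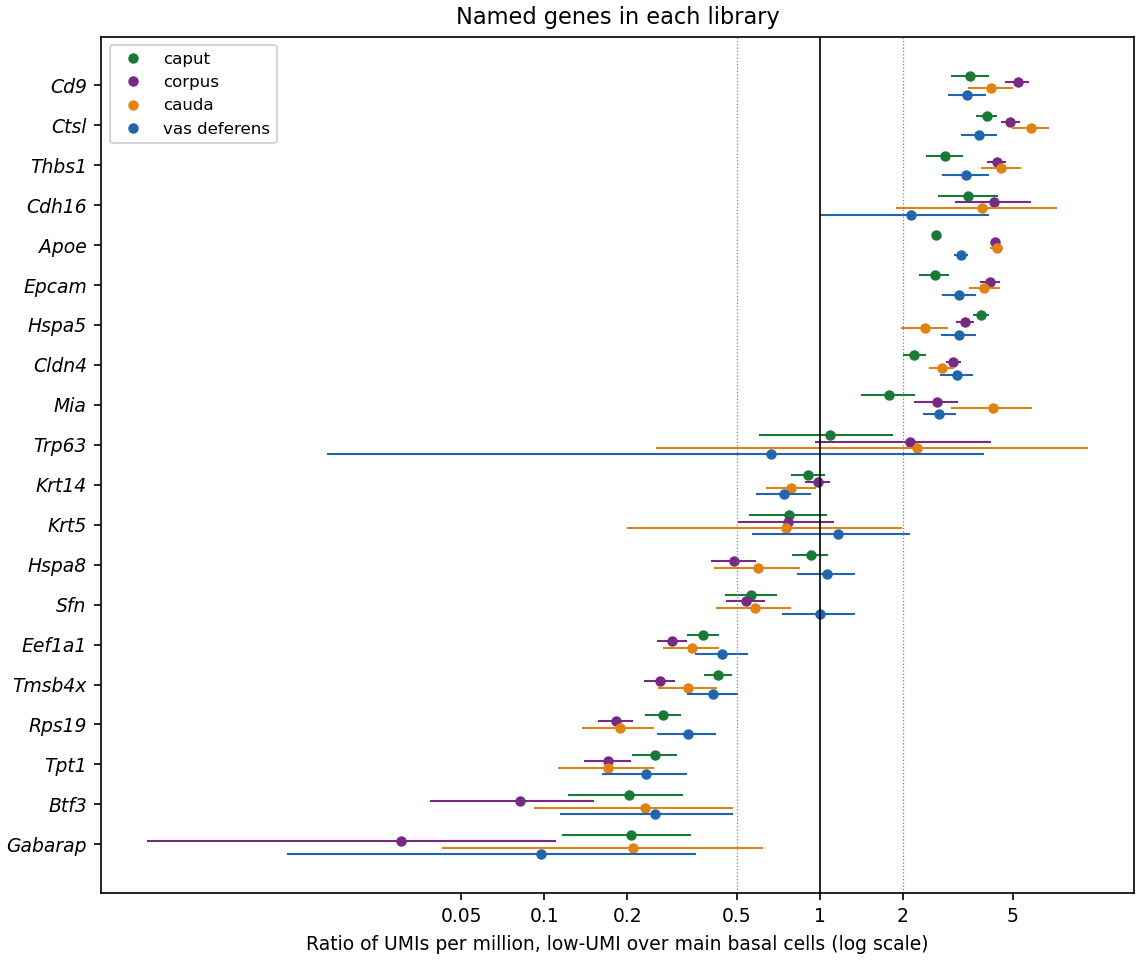
Ratio of UPM in low-UMI over main basal cells (log axis) for 20 named genes in each of the 4 libraries, with 95% exact intervals for counting error. Dotted lines mark ratios of 0.5 and 2. Cd9 to Mia lie above 1 in every library, and Eef1a1 to Gabarap lie below 0.5 in each.

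Most basal markers for surface and secreted proteins were higher, and those for keratins, Trp63 and Sfn were not called. Of the 14 basal markers, 9 were called higher (all genes 16.8%) and none lower (11.4%), with a median ratio of 2.61 against 1.16 for all genes compared, and 7 of the 9 stayed at 2 or more at matched depth. They included Cdh16, Mia, Epcam, Cldn1, Cldn4, Itga6, Bcam and Adm, which encode surface or secreted proteins. Epcam, an adhesion molecule of epithelia, was at 3075, 6089, 9119 and 6668 UPM against 1181, 1474, 2309 and 2087, a ratio of 3.55 (3.37 to 3.74). Cldn4, a tight junction protein, was at 5526, 11761, 13214 and 6960 UPM against 2511, 3864, 4788 and 2223, a ratio of 2.79 (2.68 to 2.90). The remaining markers were Krt14, Krt5 at 0.80 (0.65 to 1.0), Trp63, the basal transcription factor, at 1.33 (0.91 to 1.95), the cytosolic adaptor Sfn at 0.59 (0.53 to 0.65), and Itgb6 at 3.39, which was not above 1 in the cauda. On the scale outside ribosomal genes 8 markers were higher (all genes 9.62%) and 1, Sfn, was lower (17.1%). Of the 8 genes of cell adhesion that the study names for basal cells, 6 were higher (all genes 16.8%), with a median ratio of 3.06. At matched depth 4 of the 6 stayed at 2 or more, Cdh16 did not and Gja1, a gap junction protein, went from 3.28 to 0.98 (0.67 to 1.45). Of 3 compared genes of the Notch2-high list, Notch2 and Slc39a1 were higher. The study chose several of these genes on these libraries, so they are not independent evidence of a direction.

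Integrins and hemidesmosome genes were more often higher than the 16.8% of all genes compared, and no keratin was called. Of 8 integrins, 5 were higher (median ratio 2.83), with the most abundant, Itgb1, at 2.67 (2.43 to 2.93), the highest, Itgav, at 3.54 (2.95 to 4.26; 1.96 at matched depth) and the lowest, Itgb5, at 1.46 (1.04 to 2.04). Of 11 genes of hemidesmosomes and basement membrane, 8 were higher (median 2.39), from Lama3 at 2.21 to Col17a1, the transmembrane collagen of hemidesmosomes, at 3.59 (2.82 to 4.56), including the cytosolic linker Plec at 2.29 (1.95 to 2.69), while the related Dst was at 1.54 (1.22 to 1.93). Of 9 keratins none was called in either direction (median 0.90), from Krt15 at 0.77 (0.66 to 0.90) to Krt16 at 1.69 (1.23 to 2.32). Outside ribosomal genes 4 integrins, 4 hemidesmosome genes and no keratin were called, all higher (all genes 9.62%). At matched depth 4 of the 5 integrins and 6 of the 8 hemidesmosome genes stayed at 2 or more.

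Signalling and lipid genes of basal cells were among the higher genes. Of 10 genes of intercellular signalling, 7 were higher (all genes 16.8%) and none lower (median 2.61), including Cd9, a tetraspanin, at 4.31 (4.04 to 4.59), Ctgf, a matricellular growth factor, at 3.27 (3.03 to 3.52) and Egfr at 2.51 (1.99 to 3.15). At matched depth Egfr was at 1.29 (0.60 to 2.75) and Ctgf at 7.24 (4.19 to 12.5). The most abundant, the growth factor Hbegf, was at 1.96 (1.83 to 2.10). Of 7 genes of membranes and lipid transport, 6 were higher (median 2.74), of which Sdc1 at 1.62 (0.93 to 2.82) and Vmp1 at 1.87 (1.34 to 2.60) fell below 2 at matched depth. Apoe, the secreted carrier of lipids, made up 7.00%, 9.87%, 7.32% and 4.61% of all UMIs of low-UMI cells in the caput, corpus, cauda and vas deferens, against 2.66%, 2.29%, 1.68% and 1.42% in main cells. Its ratio was 3.55 (3.51 to 3.60), and every one of the 314 thinned low-UMI cells had an Apoe UMI, as did 94.4% of main cells and 51.3% of immune cells. Of 9 secreted and matricellular genes, 5 were higher (median 2.86), led by Thbs1, an adhesive glycoprotein of the matrix, at 3.94 (3.72 to 4.17). Outside ribosomal genes 6, 4 and 4 genes of these 3 lists were higher (all genes 9.62%) and none lower. At matched depth 5 of 7, 4 of 6 and 3 of 5 higher genes stayed at 2 or more.

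Translation factors were among the lower genes. Of 20 translation factors and translation-linked genes, 15 were lower (all genes 11.4%) and none higher (median 0.37). At matched depth 9 of the 15 stayed at 0.5 or less, 5 lay between 0.5 and 1, among them Npm1, a nucleolar protein, at 0.70 (0.48 to 1.02), and 1 turned. The most abundant, Eef1a1, which brings transfer RNA to the ribosome, was at 2325, 1956, 2352 and 2470 UPM against 6165, 6732, 6858 and 5597, a ratio of 0.34 (0.32 to 0.37). Eif4a2, a helicase of initiation, had the highest ratio, 0.79 (0.65 to 0.95). Of 19 cytoskeletal genes, 6 were lower (all genes 11.4%), with a median of 0.87. Among them were the small actin-binding proteins Pfn1 at 0.21 (0.16 to 0.26), Tmsb4x at 0.34 (0.32 to 0.36) and Cfl1 at 0.44 (0.37 to 0.52). Cfl1 was at 0.76 (0.47 to 1.21) at matched depth. In all, 3 of the 6 stayed at 0.5 or less there. Flna, a large actin crosslinker, was the only one higher, at 3.21 (2.65 to 3.88), and Actg1, the most abundant, was at 0.60 (0.57 to 0.64). The iron-storage subunits Ftl1 and Fth1 were at 0.32 and 0.34, and the metallothioneins Mt1 and Mt2 at 0.44 and 0.46. Aldoa was the only 1 of 8 glycolytic genes called, at 0.42 (0.34 to 0.52) and 0.66 (0.38 to 1.15) at matched depth, and the list, with a share lower near that of all genes, had a median of 0.63. Outside ribosomal genes 18 translation, 7 cytoskeletal and 3 glycolytic genes were lower (all genes 17.1%), and Flna remained the only higher one.

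Nuclear genes for mitochondrial proteins made up 1.26%, 0.964%, 0.854% and 1.08% of UMIs in the caput, corpus, cauda and vas deferens, against 2.23%, 1.97%, 1.73% and 1.75% in main cells, a ratio of 0.53 (0.51 to 0.55). Of 68 compared, 29 were lower (all genes 11.4%) and none higher (median 0.54), or 35 lower outside ribosomal genes (all genes 17.1%), from Ndufa6 to Ndufc2 at 1.84 (1.32 to 2.56). At matched depth 13 of the 29 stayed at 0.5 or less, 9 lay between 0.5 and 1 and 7 turned. No gene of the mitochondrial genome was in the table used here.

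Stress genes were compared in the same way. Of 26 immediate early and dissociation genes, 2 were higher, the secreted Cyr61 at 2.44 and Ctgf, and 2 were lower, the transcription factors Maff at 0.36 and Fosl1 at 0.38. Both counts are smaller shares of the list than those of all genes compared, 16.8% higher and 11.4% lower. The list's median was 0.99, and the most abundant gene, Klf6, was at 0.84 (0.79 to 0.90), or 1.05 (0.87 to 1.27) at matched depth. Of 12 genes of the p53 and stress list, the secreted Gdf15 was higher, at 2.34 (1.85 to 2.98) but 1.13 (0.55 to 2.34) at matched depth, and the transcription factor Atf4 lower, at 0.38 (0.31 to 0.45). None of 8 epithelial transcription factors was called in either direction, with ratios from 0.65 for Sox9 to 1.59 for Tfap2a. Of 12 heat shock genes, Hspa5 was higher and Dnajb1 and Hspe1 were lower. Dnajb1 went from 0.40 to 1.48 (0.72 to 3.02) at matched depth, with 8 UMIs in the main cells. The medians of these last 3 lists were 0.64, 1.26 and 0.82. Outside ribosomal genes 1 immediate early gene was higher and 4 lower, and no gene of the p53 and stress list was higher and 2 were lower. No epithelial transcription factor was called there, and 1 heat shock gene was higher and 2 lower. In the lists with lower genes, their shares were near the 17.1% of all genes. No list had a larger share of higher genes than the 9.62% of all genes.

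Hspa5 and its relatives led to a comparison by cell compartment that was chosen after these values were seen. Hspa5, the heat shock protein 70 of the ER, was at 12391, 7303, 3688 and 6030 UPM against 3226, 2175, 1539 and 1888, a ratio of 3.50 (3.36 to 3.65). Hspa8, its cytosolic relative, was at 1828, 856, 1016 and 2045 UPM against 1977, 1752, 1699 and 1934, a ratio of 0.73 (0.66 to 0.80). The same division was seen for heat shock protein 90, with the ER form Hsp90b1 at 2.47 (2.24 to 2.71) and the cytosolic Hsp90ab1 at 0.73 (0.67 to 0.79). Of 15 ER chaperones and folding enzymes, 13 were higher and none lower (median 2.57). At matched depth 8 of the 13 stayed at 2 or more, 3 lay between 1 and 2, among them Canx, the lectin chaperone of the ER membrane, at 1.29 (0.74 to 2.23), and 2 turned, Ero1l to 0.84 (0.45 to 1.54) and Sdf2l1 to 0.60 (0.26 to 1.41). Of 16 cytosolic chaperones none was higher and 1, Dnajb1, was lower (median 0.86), a call that was lost at matched depth as given above. Of all genes compared 16.8% were higher and 11.4% lower. Of 13 lysosomal genes, 10 were higher (median 2.86), the most abundant being the protease Ctsl at 4.51 (4.31 to 4.72), or 3.03 (2.45 to 3.75) at matched depth. There 5 of the 10 stayed at 2 or more, 3 lay between 1 and 2, among them Psap, the precursor of the saposins, at 1.41 (1.03 to 1.92), 1 turned, Asah1 to 0.70 (0.32 to 1.55), and 1 had no UMI in the main cells. Of 6 membrane enzymes and regulators of sterol synthesis, 5 were higher (median 3.25), of which 1 stayed at 2 or more at matched depth, 3 lay between 1 and 2 and 1 had no UMI in the main cells, while the cytosolic Hmgcs1 was at 1.53 (1.10 to 2.12). Of 14 core proteasome genes none was higher and 2, Psmb1 and Psma7, were lower (median 0.76), a share near that of all genes, and Psma7 was at 0.57 (0.27 to 1.19) at matched depth. Outside ribosomal genes 9 ER chaperones, 8 lysosomal and 4 sterol membrane genes were higher (all genes 9.62%). On that scale 2 cytosolic chaperones and 3 proteasome genes were lower, shares near the 17.1% of all genes.

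The hydrophobic segments of such proteins can be read in their coding sequences. The first 25 codons are shown for 4 genes because they hold the start of the protein, where ER signal sequences lie, with codons for strongly hydrophobic residues (alanine, cysteine, phenylalanine, isoleucine, leucine, methionine, valine) in capitals. They come from GENCODE transcripts on GRCm38, the assembly also called mm10.
Apoe: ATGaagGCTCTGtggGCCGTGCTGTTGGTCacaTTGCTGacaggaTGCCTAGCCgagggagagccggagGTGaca
Hspa5: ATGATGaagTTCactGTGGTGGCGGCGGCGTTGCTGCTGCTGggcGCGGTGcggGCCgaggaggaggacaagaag
Hspa8: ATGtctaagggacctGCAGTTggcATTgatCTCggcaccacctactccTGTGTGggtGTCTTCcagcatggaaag
Tpt1: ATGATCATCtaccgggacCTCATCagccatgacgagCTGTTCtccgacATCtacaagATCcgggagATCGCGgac
Apoe (chromosome 7, 19696244 to 19701310) and Hspa5 (chromosome 2, 34772090 to 34776529) have 14 and 15 capital codons, in near-continuous runs. Hspa8 (chromosome 9, 40801276 to 40805202) has 9 and Tpt1 (chromosome 14, 75845256 to 75848303), an abundant cytosolic protein, has 11, and in both they are scattered. The mean hydropathy of the most hydrophobic 19 residues within the first 50 was 1.63 for Apoe, 1.78 for Hspa5, 0.75 for Hspa8 and 0.59 for Tpt1. Tpt1 was at 1044, 789, 813 and 930 UPM in low-UMI cells against 4143, 4616, 4756 and 3959, a ratio of 0.20 (0.18 to 0.23). At matched depth Apoe was at 2.61 (2.46 to 2.77), Hspa5 at 2.62 (2.18 to 3.16), Hspa8 at 0.83 (0.64 to 1.09) and Tpt1 at 0.34 (0.27 to 0.42).

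Each gene was then classed by whether its protein holds a stretch of 19 residues with a mean Kyte-Doolittle hydropathy of at least 1.6, which is how a membrane-spanning segment or a long signal sequence appears, and where. The class could be given for 2480 of the 2495 genes. The 397 genes with such a stretch in the first 40 residues had a median log2 ratio of 1.18, and 196 were higher and 3 lower. The 327 with a stretch further in had a median of 0.87, with 110 higher and 6 lower. The 57 whose stretch lies only in the last 50 residues had a median of 0.33, with 12 higher and 7 lower. The 1551 without a stretch, leaving out ribosomal and mitochondrial genes, had a median of -0.03, with 99 higher and 156 lower. Outside ribosomal genes, 116 genes with an N-terminal stretch were higher and 6 lower, and 70 and 12 of those with an internal one. The counts there were 8 and 8 for a stretch only in the last 50 residues and 45 and 282 for none (all genes 9.62% and 17.1%). Nuclear mitochondrial and ribosomal genes had medians of -0.89 and -1.90. A ratio above 1 was found for 95.2% of genes with an N-terminal stretch and 48.7% of those without any. The class is a rough one. The secreted proteins Thbs1, Cyr61 and Manf hold no stretch by this rule and were among the higher genes without one, as were large cytosolic or nuclear proteins such as Ahnak, Plec and Son.

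Genes for the machinery that inserts proteins into the ER were called in both directions, 7 higher (all genes 16.8%) and 2 lower (11.4%) of 12, or 4 and 2 outside ribosomal genes (9.62% and 17.1%). The share of lower genes is near that of all genes. At matched depth 5 of the 7 stayed at 2 or more and 1 of the 2 at 0.5 or less. Sec62, Ssr1, Ssr2 and Ssr3, with N-terminal or internal segments, had ratios of 3.27, 2.90, 2.69 and 2.54. Sec61b and Sec61g, small proteins of the same channel whose only segment lies near the C-terminus, were lower, at 0.27 (0.19 to 0.39) and 0.35 (0.28 to 0.45). At matched depth Sec61g was at 0.82 (0.41 to 1.65), Sec61b at 0.36 (0.18 to 0.73) and Ssr3 at 1.6 (0.94 to 2.72). Sec61a1, the pore itself, was at 2.06 (1.42 to 2.97) but below 1 in the cauda.

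The order of the classes was also seen among genes of like transcript length. With the genes in 4 equal groups by length, in the shortest group, up to 1502 bases, 98 genes with an N-terminal stretch had a median log2 ratio of 1.11 and 341 without a stretch had -0.63. In the longest group, above 4215 bases, the medians were 1.20 for 74 genes and 0.48 for 405. The medians thus spread more with length among genes without a stretch than among those with an N-terminal one. The 73 ribosomal genes of the shortest group had a median of -1.95.

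**Figure D3:**
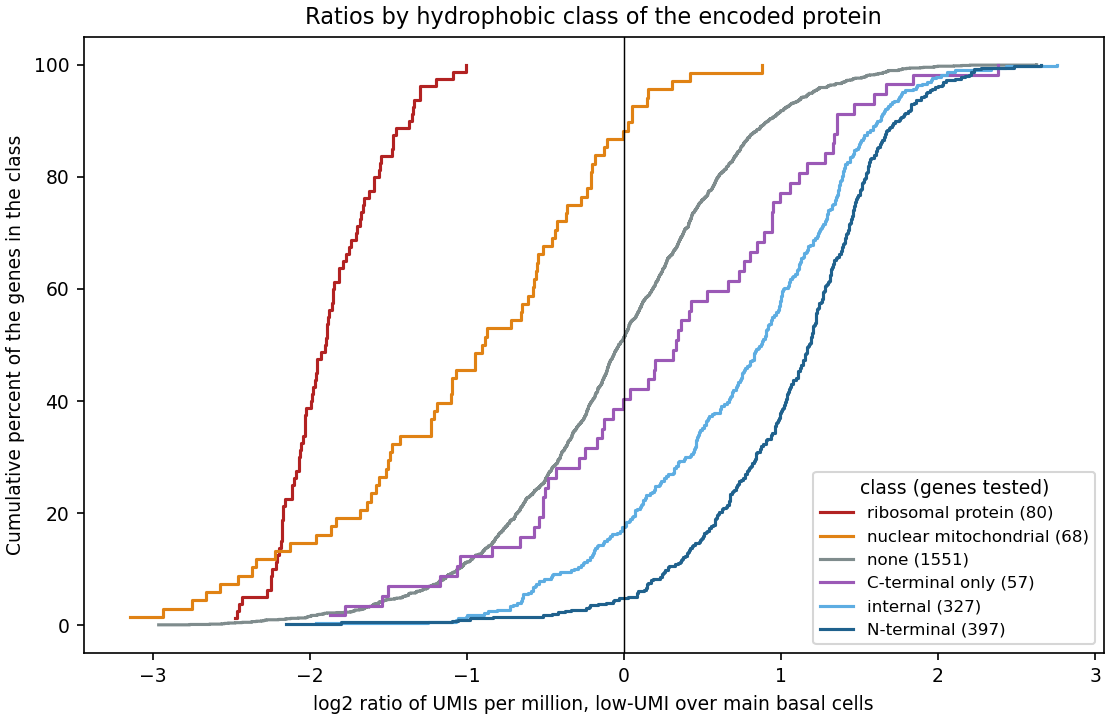
Cumulative percent of genes (vertical axis) against the log2 ratio of UPM in low-UMI over main basal cells (horizontal axis), for 6 classes of genes by the hydrophobic stretch of their protein. The curves run from ribosomal protein genes on the left (median -1.90) through genes without a stretch (-0.03) to genes with an N-terminal stretch on the right (1.18).

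In each library the order of the classes was the same. Genes with an N-terminal stretch had median ratios of 1.93, 2.48, 2.25 and 1.87 in the caput, corpus, cauda and vas deferens, those with an internal stretch 1.59, 1.93, 1.92 and 1.48, those without 0.99, 0.96, 0.92 and 0.93, and ribosomal genes 0.32, 0.22, 0.21 and 0.36. All genes with an N-terminal or internal stretch together gave 44.5%, 49.0%, 47.9% and 40.5% of the UMIs of low-UMI cells, against 22.2%, 19.7%, 18.9% and 21.2% in main cells. Without Apoe the shares were 37.5%, 39.2%, 40.6% and 35.9% against 19.6%, 17.5%, 17.2% and 19.8%. In single cells the median was 50.6% (range 24.3% to 69.1%), against 20.4% in main and 20.5% in Notch2-high cells. At 500 to 1000 UMIs it was 53.3% in low-UMI and 21.0% in main cells, and at 1000 to 1500 UMIs 49.7% and 30.0%. Among cells of matched depth the median was 51.8% in low-UMI and 24.6% in main cells. It was lower in deeper low-UMI cells, at 44.3% for those of 1500 to 2000 UMIs and 31.4% for the 5 of 3000 to 5000. Summed UMIs do not show how much RNA of each kind a cell held, since a higher share of one kind and a loss of the other kind cannot be told apart here.

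Other populations of low depth or low ribosomal share were compared with a deeper population that carries a label of the same kind. Genes there passed by the fold alone, without the condition on the libraries. Low-UMI clear cells (deposited label ClearKrt14, 54 cells, 48 of them in the 3 libraries with at least 10 cells of each kind, which were used, with a median of 698.5 UMIs) had 2.72% ribosomal UMIs against 15.4% in main clear cells. Krt14 itself, with too few UMIs to be compared by the rule, was 23.5-fold higher (12.4 to 44.6) in them than in main clear cells. Mia and Lcn2, which could be compared, were at 30.6 (18.9 to 49.6) and 26.6 (16.9 to 41.9). Epcam was at 4.02 and Cldn4 at 3.17. The part of basal cell RNA in that comparison was not tested. Low-UMI stromal cells (label StromalIL6, 319 cells, 670 UMIs) had 7.00% against 19.3% in the largest stromal population. Low-ribosomal muscle cells (262 in all, 257 in the cauda and vas deferens, which were used) had a median of 1080.5 UMIs and 2.73% ribosomal UMIs against 13.6% in other muscle cells.

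Many of the genes called in low-UMI basal cells passed the same fold in these populations. Of the 419 higher basal genes, 67 could be compared in clear cells and 57 of them, 85.1%, were at least 2-fold higher there, which was 67.1% of the 85 such clear genes that were compared in basal cells. In stromal cells 142 of 255 were, which was 55.7% of the basal list and 61.7% of the stromal one, and in muscle cells 142 of 216, which was 65.7% and 37.3%. The background share of genes at least 2-fold higher was 30.6% in clear, 14.9% in stromal and 27.1% in muscle cells. The background shares here, and those of Notch2-high cells below, carry no condition on the libraries. Without that condition 21.0% of genes were higher and 12.2% lower in low-UMI basal cells. Of the lower basal genes, 111 of 115, 152 of 257 and 192 of 254 were at most 0.5-fold in clear, stromal and muscle cells, or 96.5%, 59.1% and 75.6% of the basal list and 90.2%, 87.9% and 70.6% of the others. The background shares there were 40.1%, 7.6% and 13.1%. Of the ribosomal genes compared, 69 of 71, 73 of 80 and 78 of 80 were at most 0.5-fold there, and all 80 are among the lower basal genes. The populations were taken for low depth or low ribosomal share, so this part of the overlap follows from the choice. The overlap without ribosomal genes was not tested, nor was the part of basal cell RNA in the overlap with clear cells.

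The classes lay in the same order. The median log2 ratio of genes with an N-terminal stretch was 1.34 in clear, 0.89 in stromal and 1.09 in muscle cells, against -0.23, 0.13 and 0.43 for genes without a stretch and -2.56, -1.52 and -2.40 for ribosomal genes. Hspa5 had ratios of 4.75 (4.10 to 5.50), 3.61 (3.45 to 3.78) and 3.48 (3.07 to 3.95), and Hspa8 of 0.71, 0.72 and 0.55. Notch2 itself was at 3.20 (2.45 to 4.19) in stromal and 2.85 (2.20 to 3.71) in muscle cells. Notch2-high basal cells, which are not shallow as a group, gave medians of 0.03, -0.03 and -0.17 for the 3 classes against the same main basal cells, 2.1% of genes at least 2-fold higher and 0.37% at most 0.5-fold. Hspa5 was at 1.09, Ctsl at 1.01 and Hspa8 at 0.84 in that comparison, beside 3.50, 4.51 and 0.73 in low-UMI basal cells, and both comparisons use the same main basal cells.

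**Figure D4:**
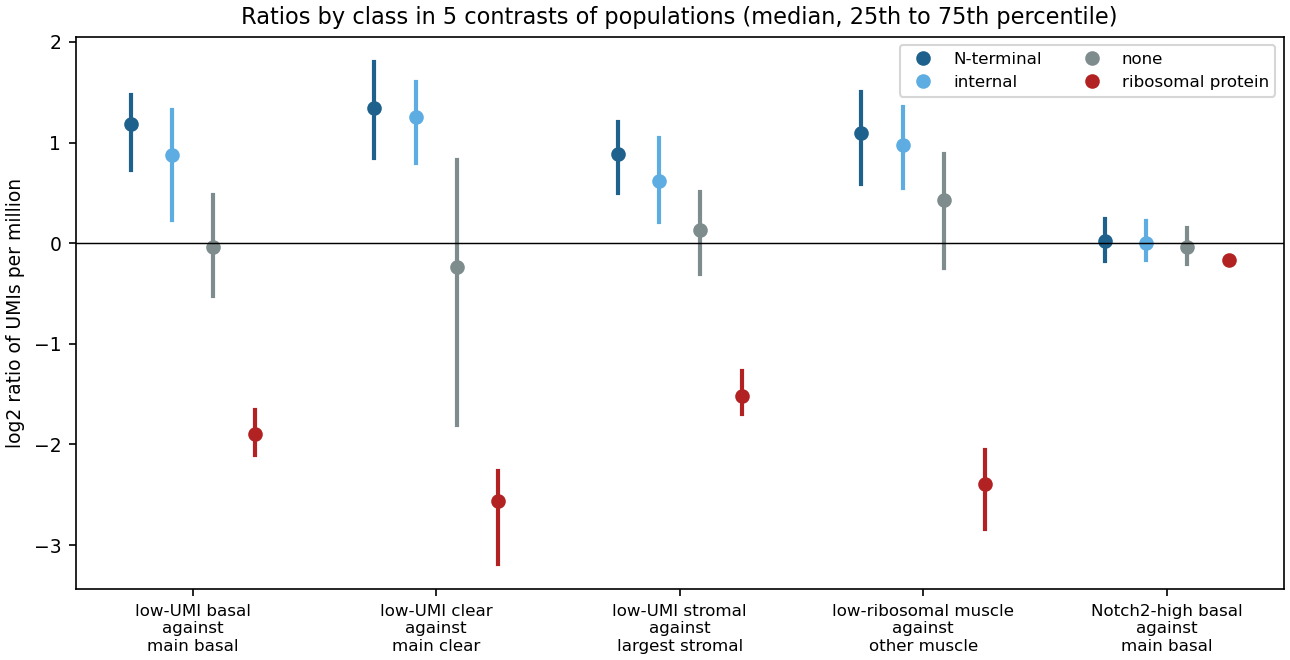
Median log2 ratio (points) with the 25th to 75th percentile of genes (bars) for 4 classes of genes in 5 comparisons. Each sets a population against a deeper one that carries a label of the same kind. The 4 shallow or low-ribosomal populations have ribosomal medians between -2.56 and -1.52 and N-terminal medians between 0.89 and 1.34, and Notch2-high basal cells have all medians between -0.17 and 0.03.

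Single genes differed in size among the populations. Apoe was 11.0-fold (8.98 to 13.5) higher in low-UMI clear cells but 1.93-fold (1.82 to 2.05) in stromal and 1.35-fold (0.95 to 1.91) in muscle cells, beside 3.55 in basal cells. Cd9 was at 4.12, 2.30 and 2.39 in the 3 populations and Ctsl at 5.00, 3.40 and 3.01, both higher in each as they were in basal cells. These differences between populations were not tested. Krt14, Mia and Lcn2 were also higher in low-UMI clear cells, as given above. The part of basal cell RNA in the Apoe ratio of those cells was not tested.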

How the data were processed

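Single-cell 3′ libraries were sequenced from 4 regions. Per the study's methods and its processing notes, the authors aligned reads to mm10 with HISAT2 2.0.4 after bcl2fastq, counted UMIs per RefSeq gene with ESAT, multimapping reads ignored, filtered barcodes by UMIs (350 to 14999 in the deposited cells), and removed ambient RNA. The deposited counts are whole UMIs after that removal, and the deposited cell annotation gives cell populations, UMIs before removal and a size factor, a ratio per cell by the authors, which was not used in any comparison. Ribosomal protein genes have many near-identical copies, so single members are uncertain.

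Members were taken by their deposited label. The members and gene lists were chosen with earlier results of these data known, and 7 lists by compartment and the hydrophobic classes after the values were seen. Library totals over all cells were 4408989 (caput), 6602962 (corpus), 4882822 (cauda) and 10744928 UMIs (vas deferens). Doublets were not called or removed. UMIs were summed per population and library (Python 3.11.15, numpy 2.4.6, scipy 1.17.1, pandas 2.3.3). Ratios over libraries are Mantel-Haenszel ratios with Greenland-Robins intervals, shares have exact binomial intervals, and calls follow a rule of size. The calling step was tested on simulated data. No p-value was computed, because there were no replicates and the populations were cut from the same counts. Kinase symbols beginning with Rps6k and Rps19bp1, 11 in all, were left out of the ribosomal list. Genes were matched to GENCODE coding transcripts (16707 of 16892, 609 of them through RefSeq synonyms), and the longest coding sequence was translated with Biopython 1.88. The genes named were the 10 highest and 10 lowest ratios among called genes, with ribosomal genes as 1 group, the markers, genes the study names for basal cells, and in each list the most abundant, the highest and the lowest. Other genes named were chosen after their values were seen.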

Additional observations from a re-analysis of the deposited data

How the results depend on the processing

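With 1 library per region, and regions that differ in cells and depth, differences between regions, mice and libraries cannot be told apart, and the counts of the cauda and vas deferens limit their gene-level ratios. The ribosomal ratio of 0.28 became 0.37 with main cells of matched depth (38 cells), 0.22 as a mean over cells, 0.286 for cells of at least 500 UMIs, 0.24 without low-UMI cells above 3000 UMIs, and 0.26 to 0.32 when 1 library was left out. The mitochondrial ratio became 0.64 at matched depth, 0.49 as a mean over cells, and 0.51 to 0.56 with 1 library left out. The count of higher genes became 240 outside ribosomal genes, 216 at 50 UMIs (21.0% of 1028 genes compared), 605 at 1.5-fold and 20 at 4-fold. It ran from 236 (without the corpus, of 1462 genes compared) to 453 with 1 library left out. The count of lower genes became 427 outside ribosomal genes, 443 at 1.5-fold, 66 at 4-fold, 98 at matched depth, and 215 to 288 with 1 library left out. Matched depth leaves only 2 main cells in the cauda. The cause of the other changes was not tested. Of 419 higher and 284 lower genes, 182 and 72 were also called at matched depth. Of the 50 genes named by rule, 48 had a value there: 34 kept their side of the fold and 2 called genes turned, Atp5g2 to 1.04 and Gja1 to 0.98. The called genes Evi2b (1.37), Slc39a1 (1.34), Mia (1.15), Cdh16 (1.57), Egfr (1.29), Dll1 (1.46), Sdc1 (1.62), Vmp1 (1.87) and Gnb2l1 (0.63) no longer reached it, and 3 genes that had not been called, Itgb6 (7.99), Nrg1 (3.43) and Cd44 (2.39), were above it. Class medians kept their order at hydropathy limits of 1.4 (1.15, 0.63 and -0.09 for N-terminal, internal and no stretch) and 1.8 (1.17, 1.01 and 0.02), outside ribosomal genes (0.87, 0.56 and -0.34) and at matched depth (0.92, 0.63 and -0.16), alternatives chosen after seeing the data. The Krt14 share became 56.1% at 500 UMIs and 66.3% without thinning, and 37.8% to 45.0% with 1 library left out. Without its most abundant gene each marker list fell to 0.510% (principal), 0.0442% (clear), 0.0248% (muscle), 0.00413% (stromal), 0.00236% (endothelial) and 0.00236% (immune). With 1 library left out these lists gave 1.03% to 1.93% (principal), 0.0252% to 0.0445% (muscle) and 0.00365% to 0.0157% (immune). The share of low-UMI cells was 22.3% of all cells of the basal group and 21.6% to 30.3% with 1 library left out. Their median depth was 1025 UMIs before ambient removal. The shares of basal genes found in other populations became, at 1.5-fold, 93.0% (clear, higher), 81.6% (stromal, higher), 89.3% (muscle, higher) and 67.1% (muscle, lower), and at 10 UMIs 49.7% (stromal, lower) and 63.9% (muscle, lower). No paired test was run because no result comes from a test. The ratios over libraries compare the populations within each library.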
